A study of Mus musculus with 6 samples.

Results

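The proteasome genes of mouse LSK cells were examined as 1 module, with the interferon-inducible immunoproteasome genes set apart from the rest. Members were found by name alone, as every gene symbol that starts with Psm, a letter from a to g and a number. The rule took 50 of the 24063 symbols listed. Of these, 5 were the immunoproteasome genes Psmb8, Psmb9, Psmb10, Psme1 and Psme2, 43 were other subunits, activators, inhibitors or assembly factors, and 2 matched the name without being proteasome parts. The rule used no measured value.

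The proteasome is the barrel-shaped protease that degrades ubiquitin-tagged proteins and supplies peptides for presentation on class I molecules of the major histocompatibility complex. Its 20S core consists of alpha rings, which gate the entrance, and beta rings, in which Psmb5, Psmb6 and Psmb7 encode the catalytic sites of the constitutive form. Under interferon, and in many blood cells without it, Psmb8, Psmb9 and Psmb10 replace these 3 sites, and the 11S activator made of Psme1 and Psme2 can cap the core. The 19S particle, with an ATPase ring, further base subunits and a lid, recognises, deubiquitinates and unfolds substrates. Blood stem cells are known for keeping their protein turnover under tight control.

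RNA was sequenced from LSK cells, the lineage-negative Sca-1+ c-Kit+ bone marrow fraction that holds stem and early progenitor cells, of 3 Asxl2-/- and 3 control mice on the C57BL/6 background. Asxl2 encodes a chromatin regulator of the Polycomb-associated ASXL family. Per the study's description, Asxl2-/- cells came from Mx1-cre mice with floxed Asxl2 alleles (Asxl2fl/fl, exon 11 between loxP sites), whereas controls carried Mx1-cre with wild-type Asxl2 alleles. Both groups had been given pIpC, which mimics viral double-stranded RNA and so switches on interferon and the Mx1 promoter driving Cre, and deletion can reach any interferon-responsive cell. Per the same description, the LSK cells were taken weeks after pIpC was given, not directly after it. The groups therefore share the transgene and an earlier interferon stimulus, and no mice without pIpC are included here. The labels give neither age nor sex of the animals.

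The libraries were deposited as 2 kinds of count file. Asxl2-/- replicates 1 and 3 and control replicate 2 had 1 count per transcript (gene-count files), with totals of 25528540 to 29136012 counts over all genes. Asxl2-/- replicate 2 and control replicates 1 and 3 had 1 count per exon (exon-count files), with totals of 53147729 to 55032075 after summing, in which a read across a splice junction can count more than once. Levels were therefore compared within a kind of file, as counts per scaled library size (CPM) after TMM scaling, and the fits carried the kind of file as a covariate. The Asxl2 locus checked the labels: exon 11 held 0.583% of the gene's counts in Asxl2-/- replicate 2 (28 of 4804, Wilson 95% interval 0.404% to 0.841%, counting error only), against 10.3% and 12.0% in control replicates 1 and 3. Per-exon counts were not used for the other libraries, which have gene counts only. Transcripts of the female-specific Xist reached 1081 to 2331 CPM in the Asxl2-/- libraries and 13.1 to 61.4 CPM in the controls, so sex and genotype cannot be told apart. In edgeR, 8 of 10 B-lymphoid and 5 of 9 megakaryocyte marker genes were raised in Asxl2-/- cells at an adjusted p under 0.05. Of all 14145 genes tested, 288 were raised. The list medians of the log2 fold change were 1.91 and 1.15. In sorted bulk RNA, fewer cells of a type and less RNA per cell cannot be told apart.

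Promoter sequences were taken from RefSeq (GRCm38.p6, the assembly of the mm10 build) for 42 of the 50 members. The 8 without an entry were Psma8, Psmb1, Psmb2, Psmb7, Psmc3, Psmd3, Psmd7 and Psmg2. The set shown has the 5 immunoproteasome genes, Psmb5 and Psmb6 as 2 of the subunits they replace, and Psmd4, the member with the smallest p-value. Each run gives 220 bases before and 30 bases from the start of the gene, on the gene's strand. Capitals mark matches on either strand to 4 patterns, namely the core AANNGAAA bound by interferon regulatory factors, the gamma-activated site TTCNNNGAA bound by STAT factors, the antioxidant response element TGACNNNGC bound by NRF factors and the box CCAAT.
Psmb8, chr17:34197975-34198224, plus strand: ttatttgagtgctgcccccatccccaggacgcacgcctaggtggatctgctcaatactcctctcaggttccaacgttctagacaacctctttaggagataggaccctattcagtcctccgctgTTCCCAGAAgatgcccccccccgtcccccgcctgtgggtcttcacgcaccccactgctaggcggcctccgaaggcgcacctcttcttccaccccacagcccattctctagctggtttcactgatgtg
Psmb9, chr17:34187301-34187550, minus strand: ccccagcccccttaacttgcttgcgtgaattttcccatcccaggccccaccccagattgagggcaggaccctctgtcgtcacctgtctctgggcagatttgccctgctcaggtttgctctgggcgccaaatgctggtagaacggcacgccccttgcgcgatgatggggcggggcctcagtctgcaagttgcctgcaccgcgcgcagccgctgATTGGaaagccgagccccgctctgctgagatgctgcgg
Psmb10, chr8:105938363-105938612, minus strand: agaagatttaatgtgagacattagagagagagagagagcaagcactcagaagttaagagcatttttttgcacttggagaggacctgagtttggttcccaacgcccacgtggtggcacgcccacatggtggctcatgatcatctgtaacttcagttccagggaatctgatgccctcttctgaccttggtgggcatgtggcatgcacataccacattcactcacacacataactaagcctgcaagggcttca
Psme1, chr14:55578274-55578523, plus strand: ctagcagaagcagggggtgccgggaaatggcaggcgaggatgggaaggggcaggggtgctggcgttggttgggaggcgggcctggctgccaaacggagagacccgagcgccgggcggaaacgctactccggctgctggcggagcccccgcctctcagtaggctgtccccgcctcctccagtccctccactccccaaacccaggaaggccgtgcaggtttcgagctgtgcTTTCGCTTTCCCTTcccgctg
Psme2, chr14:55590992-55591241, minus strand: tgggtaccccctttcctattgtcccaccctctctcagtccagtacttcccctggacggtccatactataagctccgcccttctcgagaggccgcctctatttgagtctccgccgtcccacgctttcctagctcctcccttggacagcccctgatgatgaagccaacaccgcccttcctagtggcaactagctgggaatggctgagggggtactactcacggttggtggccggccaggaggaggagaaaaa
Psmb5, chr14:54617966-54618215, minus strand: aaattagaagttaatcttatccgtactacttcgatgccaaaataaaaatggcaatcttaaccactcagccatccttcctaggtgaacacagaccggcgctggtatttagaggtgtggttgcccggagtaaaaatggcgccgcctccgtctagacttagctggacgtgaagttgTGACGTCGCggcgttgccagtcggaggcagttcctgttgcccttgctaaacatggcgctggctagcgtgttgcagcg
Psmb6, chr11:70525137-70525386, plus strand: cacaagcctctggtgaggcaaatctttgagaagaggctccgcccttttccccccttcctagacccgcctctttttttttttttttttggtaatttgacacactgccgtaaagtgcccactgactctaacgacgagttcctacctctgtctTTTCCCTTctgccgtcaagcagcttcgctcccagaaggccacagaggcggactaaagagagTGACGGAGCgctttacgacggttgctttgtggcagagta
Psmd4, chr3:95042585-95042834, minus strand: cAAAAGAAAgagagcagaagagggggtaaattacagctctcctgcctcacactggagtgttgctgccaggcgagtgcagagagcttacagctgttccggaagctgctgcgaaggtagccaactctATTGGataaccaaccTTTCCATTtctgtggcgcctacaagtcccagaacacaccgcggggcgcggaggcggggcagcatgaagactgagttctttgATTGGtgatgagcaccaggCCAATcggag
Within the whole 300-base windows, which reach from 250 bases before to 50 after the start, AANNGAAA was found in 1 of the 5 immunoproteasome promoters (Psme1) and in 11 of 37 others, Psmb6 and Psmd4 among them, against 24.09% of all 27025 promoters. TTCNNNGAA occurred in 1 of 5 (Psmb8) and 2 of 37 (Psmd2 and Psmg1), against 8.43% of all. TGACNNNGC occurred in 0 of 5 and 6 of 37, Psmb5 and Psmb6 among them, against 12.38% of all. CCAAT was in 1 of 5 and 13 of 37, against 37.79% of all promoters. A further pattern, the GC box GGGCGG bound by SP factors and not capitalised, was in 3 of 5 and 20 of 37, against 36.15% of all promoters. The 2 matches of AANNGAAA in Psme1 overlap each other, and matches to different patterns did not overlap in the promoters shown. A match of letters is a description of the window and not a bound site. Psmb9 lies 225 bases from Tap1, which encodes a peptide transporter for class I loading, and Psmb8 lies 969 bases beyond Tap1 on chromosome 17. Psme1 and Psme2 are 5912 bases apart on chromosome 14.

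Levels of different genes were compared as CPM per kilobase of the chosen transcript. Of the immunoproteasome genes, Psme1, Psmb8, Psmb9 and Psme2 had the highest mean levels of all members where genes had been counted. By these means Psmb8 and Psmb9 stood above Psmb5 and Psmb6, the genes they replace, whereas Psmb10 stood below Psmb7. In the 3 gene-count files, Psme1 had the highest mean level of all members at 357 CPM per kilobase (SD 119, n = 3), followed by Psmb8 at 277 (SD 113), Psmb9 at 257 (SD 99.9) and Psme2 at 209 (SD 85.8). The means of Psme2 and Psmb4 were nearly equal, at 208.8 and 208.6. Psme2 lay below Psmb4 in Asxl2-/- replicates 1 and 3, at 146.0 and 173.8 against 178.7 and 179.4. It lay above Psmb4 in control replicate 2, at 306.6 against 267.8. Psmb10 came lower, at 127 CPM per kilobase (SD 63.9). The constitutive counterparts stood at 82.4 for Psmb5, 108 for Psmb6 and 161 for Psmb7. In control replicate 2 alone, Psmb10 and Psmb7 were level at 200.3 and 200.1. Psme1 also ranked highest in the exon-count files, where Psme2, Psmb4, Psmb8 and Psmb9 took the ranks from 2 to 5.

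**Figure D1:**
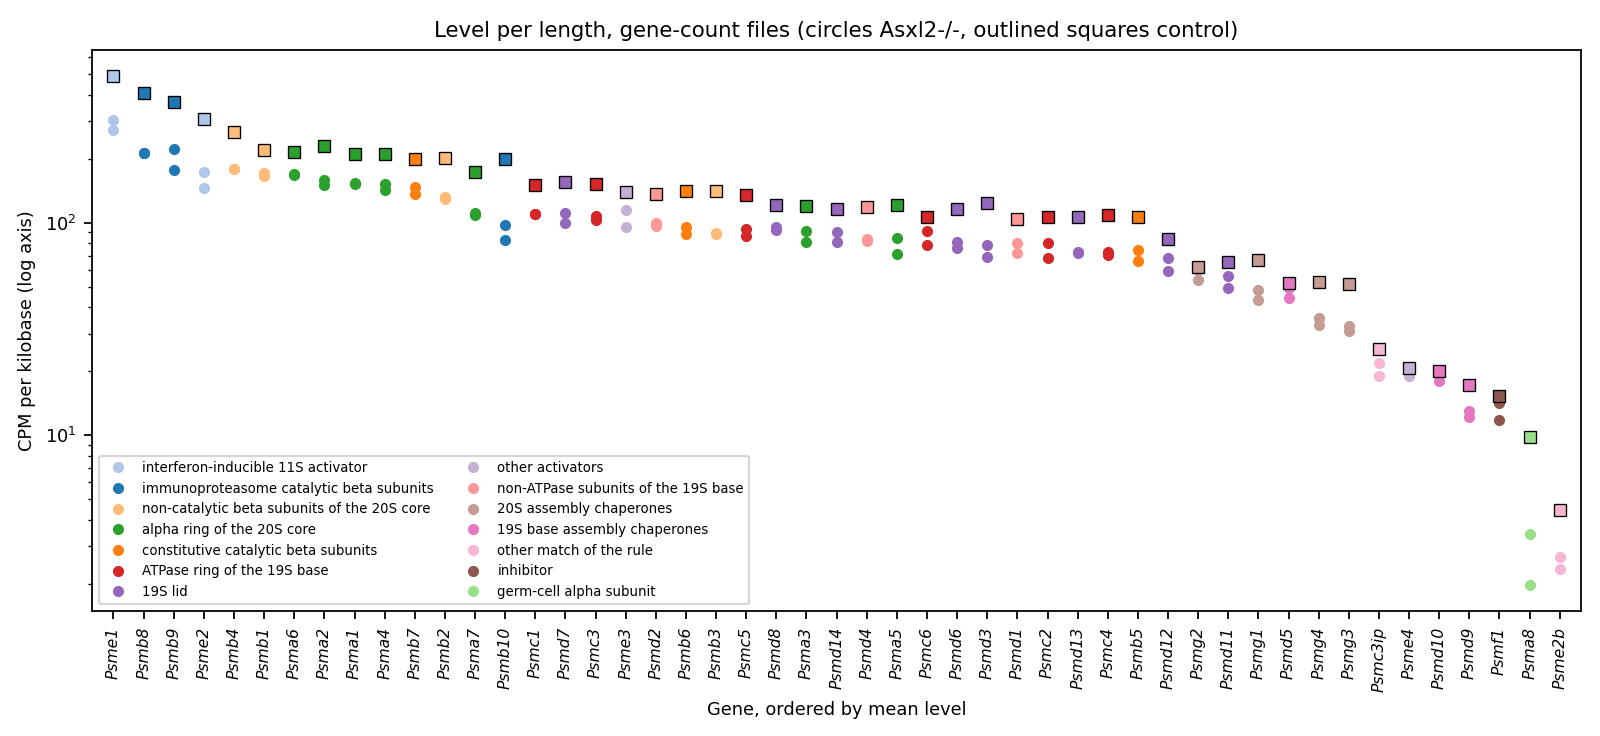
Level per length of 49 members in the 3 gene-count files, in CPM per kilobase on a log axis, ordered by mean. Circles are the 2 Asxl2-/- libraries, outlined squares are the control library and colours give the role of the gene. Psme1, Psmb8, Psmb9 and Psme2 have the highest means, while Psmf1, Psma8 and Psme2b have the lowest of those plotted. Psmb11, with 0 counts in these files, is left out.

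By their medians, the alpha ring and the non-catalytic beta subunits of the core stood above the parts of the 19S particle. Medians over members were 168 CPM per kilobase for the alpha ring, 170 for the non-catalytic beta subunits, 98.6 for the ATPase ring, 94.97 for the other base subunits and 90.9 for the lid, against 9.998 over all genes tested. The alpha ring, the beta subunits, the ATPase ring and the other base subunits were each above the 93rd percentile of all genes tested. Assembly factors were lower, with medians of 46.7 for the chaperones of the core and 19.1 for those of the base. The large activator gene Psme4 stood at 20.1 and the inhibitor gene Psmf1 at 13.7. Below these came the germ-cell alpha subunit gene Psma8 at 5.07, the retrocopy Psme2b at 3.16 and the thymus-specific Psmb11 at 0. In the order of levels, the ranges of neighbouring genes over the 3 libraries overlapped except at 4 places, between Psmg3 and Psmc3ip, Psmd10 and Psmd9, Psmf1 and Psma8, and Psme2b and Psmb11.

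The comparison of Asxl2-/- with control cells asked whether the module's transcripts differed between genotypes. Proteasome transcripts were lower in Asxl2-/- cells by a similar, modest amount across nearly all parts of the particle, but no single member passed the adjusted threshold. Of 49 members with enough counts to test, 48 had a log2 fold change below 0, against 49.9% of the 14145 genes tested. The median log2 fold change of the members was -0.36, a change of -21.9%, with the middle of the distribution from -0.44 to -0.31, whereas the median over all genes tested was 0.00. In edgeR, 0 of 49 members passed an adjusted p of 0.05, against 2.34% of all genes tested in either direction. At an unadjusted p under 0.05, 32 of 49 members were lower and 0 were higher, against 12.6% of all genes tested that were lower. DESeq2 called 21 of 49 members lower at its adjusted threshold and none higher, against 7.97% of all genes called lower, and limma-voom called 0, with 31 lower at an unadjusted p under 0.05. In 30 of 49 members every Asxl2-/- library was below every control library of the same kind of file, against 23.3% of all genes, and in 0 members the reverse held.

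**Figure D2:**
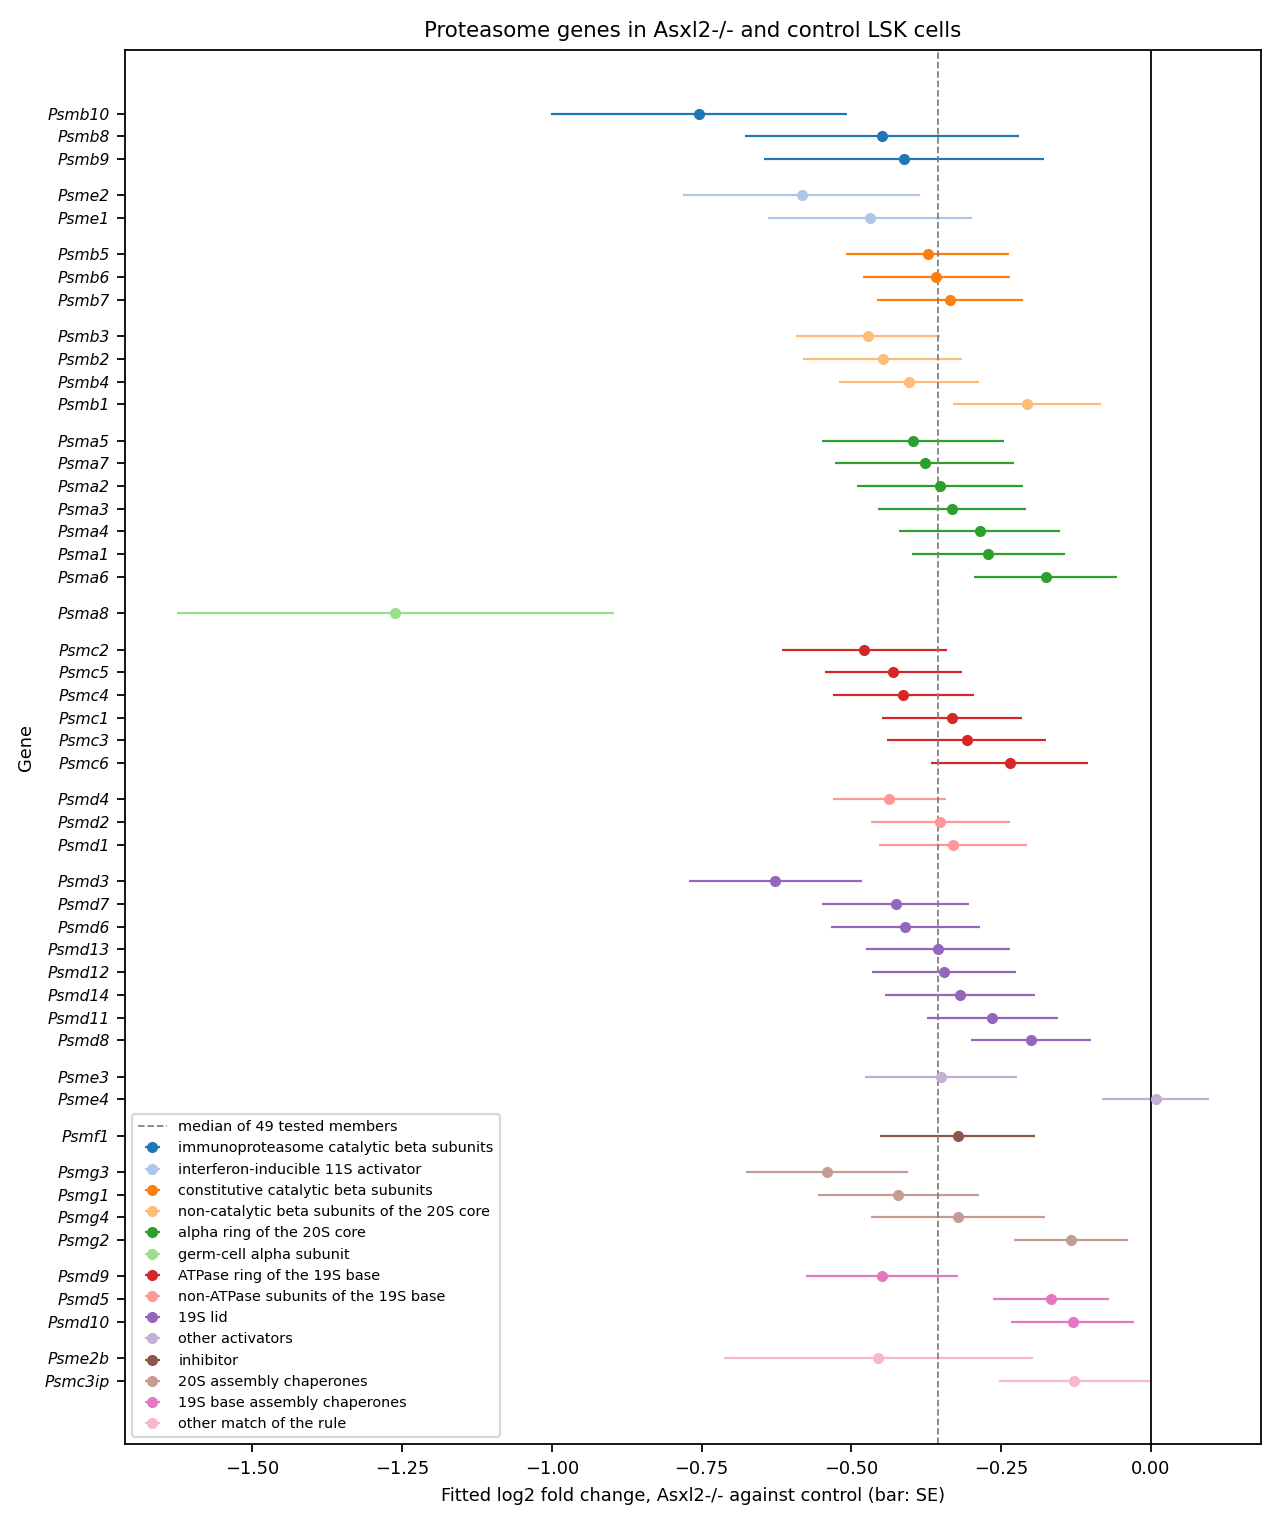
Fitted log2 fold change of 49 proteasome genes in Asxl2-/- against control LSK cells (points) with its standard error (bars), grouped by role from top to bottom. The dashed line marks the median of -0.36. All points but that of Psme4 (0.01) lie left of 0, and Psma8 (-1.26) and Psmb10 (-0.75) lie farthest left.

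The size of the difference depended on single libraries. Within the gene-count files, 49 of 49 members had a lower mean in the 2 Asxl2-/- libraries than in control replicate 2, with a median of -0.51 on the log2 scale. Within the exon-count files, 45 of 49 were lower in Asxl2-/- replicate 2 than in the mean of the 2 controls, with a median of -0.20. Without control replicate 2, which leaves the gene-count files with no control, the median was -0.20 and 3 members were lower at an unadjusted p under 0.05. This count was 14 without Asxl2-/- replicate 1, 19 without Asxl2-/- replicate 3 and 14 without control replicate 3. Without control replicate 1, the count was 43 and 23 members passed the adjusted threshold in edgeR. Without Asxl2-/- replicate 2, 2 members passed, Psmb8 and Psma8. Summed over all members, CPM was 5891 and 6332 in Asxl2-/- replicates 1 and 3 and 9021 in control replicate 2. In the exon-count files the sum was 9655 in Asxl2-/- replicate 2, 9734 in control replicate 1 and 12410 in control replicate 3. Asxl2-/- replicate 2 and control replicate 1 thus lay close together, and control replicate 3 was higher than both.

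**Figure D3:**
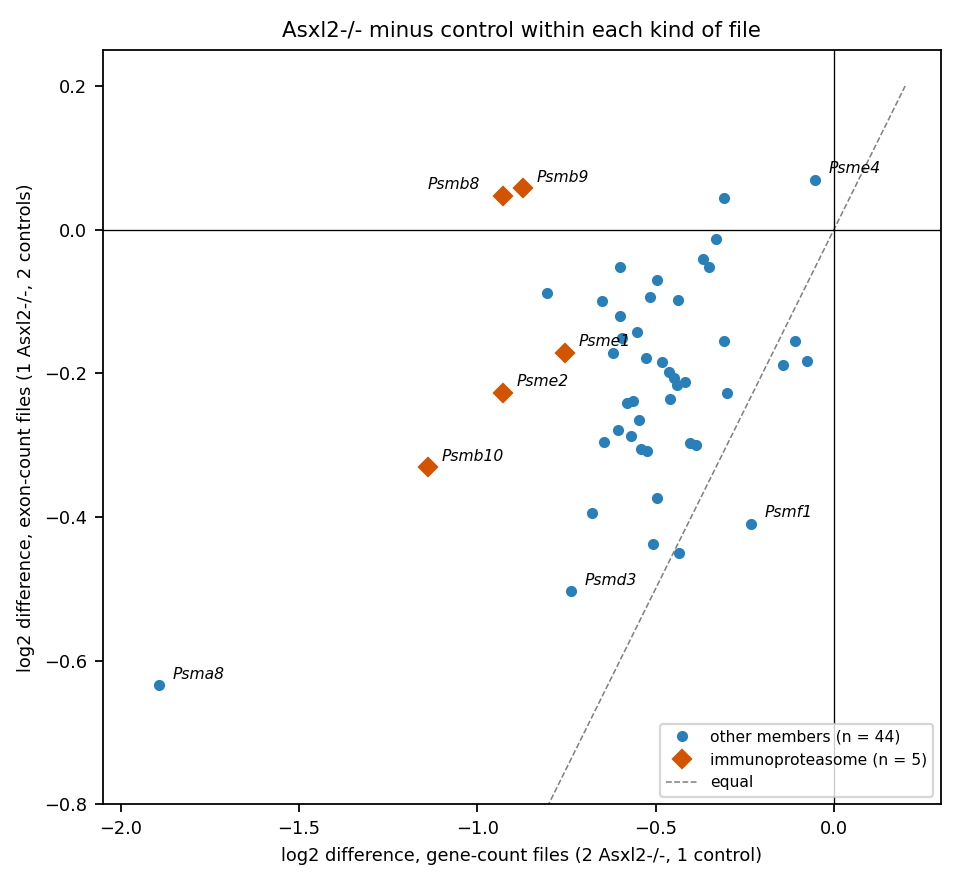
Log2 difference between Asxl2-/- and control libraries for 49 proteasome genes within each kind of file, gene counts on the horizontal and exon counts on the vertical axis. Diamonds are the 5 immunoproteasome genes, circles the 44 other tested members, and the dashed line marks equal differences. Most points lie above the dashed line, and Psmb8 and Psmb9 lie just above 0 on the vertical axis.

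The immunoproteasome genes had lower fitted levels in Asxl2-/- cells, with a median log2 fold change of -0.47, but their control libraries were spread widely. In edgeR 0 of 5 passed the adjusted threshold and 3 were lower at an unadjusted p under 0.05, against 12.6% of all genes tested. DESeq2 called Psmb10, Psme1 and Psme2 lower, against 7.97% of all genes called lower. None of the 5 was lower in Asxl2-/- than in control libraries within both kinds of file, whereas this held for 30 of 44 other tested members. Psmb10, which encodes the trypsin-like site, was measured at 106 and 124 CPM in Asxl2-/- replicates 1 and 3 and at 254 CPM in control replicate 2. In the exon-count files it stood at 199 CPM in Asxl2-/- replicate 2, 193 in control replicate 1 and 324 in control replicate 3. The groups did not overlap in the gene-count files, but Asxl2-/- replicate 2 lay between the 2 controls. The log2 fold change was -0.75 (SE 0.25, adjusted p = 0.125).

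Psmb8 encodes the chymotrypsin-like site of the immunoproteasome. Its level was 259 CPM in both Asxl2-/- gene-count libraries and 499 in control replicate 2, and in the exon-count files it was 402 in Asxl2-/- replicate 2 against 331 and 455 in control replicates 1 and 3. Psmb9, the counterpart of Psmb6, had 143, 180.0 and 297 CPM in Asxl2-/- replicates 1 and 3 and control replicate 2. In the exon-count files it had 264, 214 and 300.0 CPM in Asxl2-/- replicate 2 and control replicates 1 and 3. For both genes Asxl2-/- replicate 2 was above control replicate 1. The log2 fold change was -0.45 for Psmb8 (SE 0.23, adjusted p = 0.249) and -0.41 for Psmb9 (SE 0.23, adjusted p = 0.293). Split by kind of file, Psmb8 gave -0.93 and 0.05 and Psmb9 gave -0.87 and 0.06 in gene-count and exon-count files, so the direction did not hold in the exon-count files. Without control replicate 2, the fits gave 0.04 for both.

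The 11S activator genes followed the same order of libraries. Psme1 (the alpha subunit) had 267 and 298 CPM in Asxl2-/- replicates 1 and 3 and 481 in control replicate 2, and 552, 537 and 718 CPM in Asxl2-/- replicate 2 and control replicates 1 and 3. Psme2 (the beta subunit) had 131, 156 and 275 CPM in the first 3 of these libraries and 328, 324 and 452 CPM in the others. Asxl2-/- replicate 2 again lay just above control replicate 1. The log2 fold change was -0.47 (SE 0.17, adjusted p = 0.148) for Psme1 and -0.58 (SE 0.20, adjusted p = 0.132) for Psme2. Psme2 shares sequence with the retrocopy Psme2b, and how reads matching both were treated is not given in the sources used here, so both counts are uncertain.

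**Figure D4:**
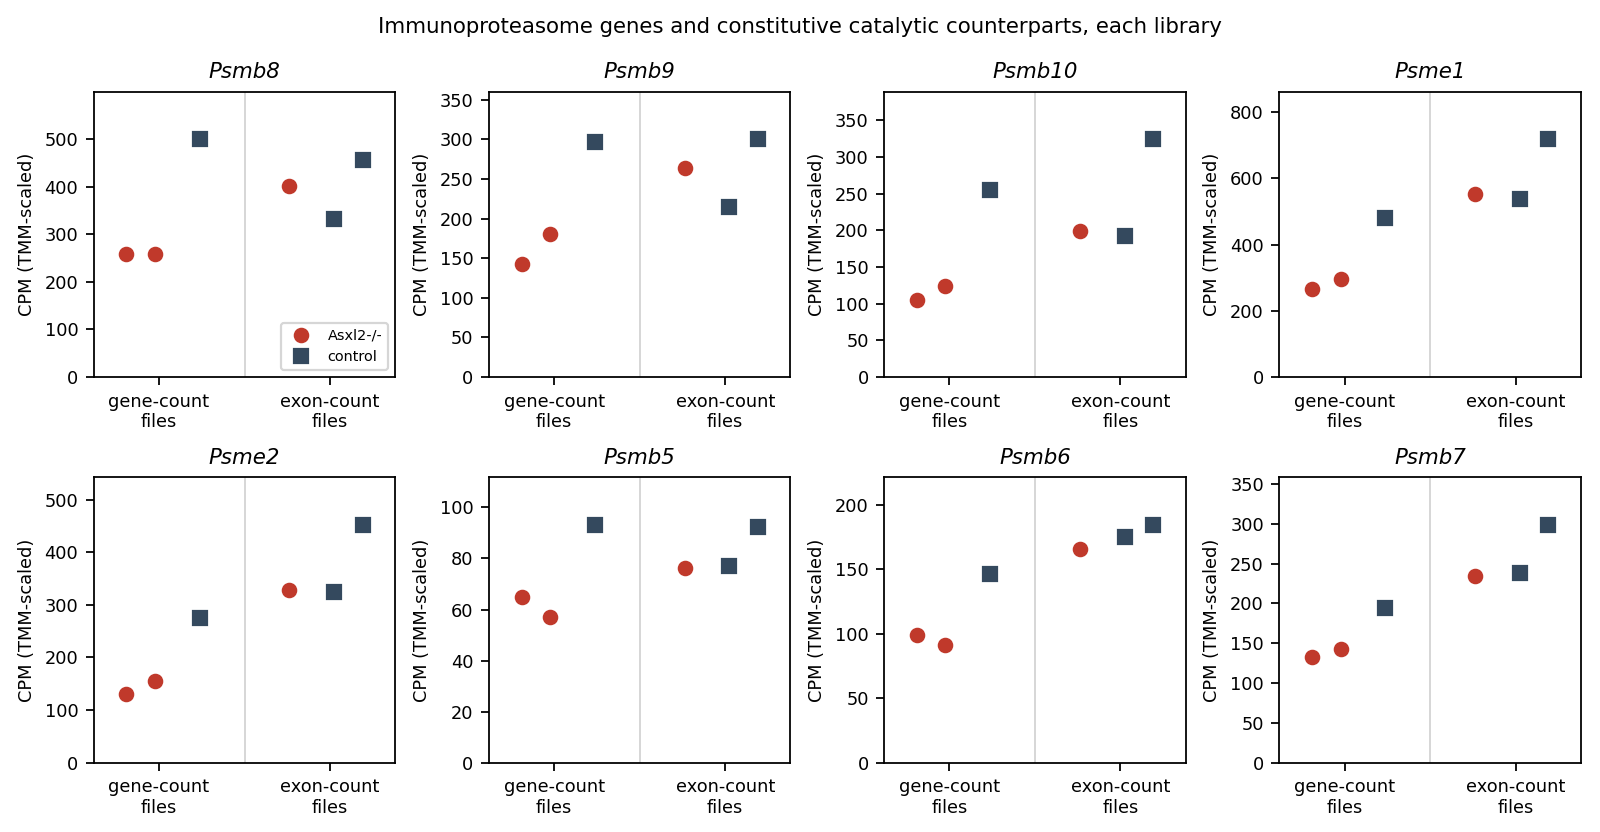
CPM in each library for the 5 immunoproteasome genes and for Psmb5, Psmb6 and Psmb7, on axes that start at 0. Each panel has the gene-count files on the left (2 Asxl2-/- libraries, control replicate 2) and the exon-count files on the right (Asxl2-/- replicate 2, control replicates 1 and 3), with circles for Asxl2-/- and squares for control. On the left the circles lie below the square in all 8 panels, and on the right the circle lies above control replicate 1 for the 5 immunoproteasome genes.

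The constitutive catalytic genes had fitted log2 fold changes close to each other and to the median of the module. Psmb5, the chymotrypsin-like site, stood at 64.9 and 57.2 CPM in Asxl2-/- replicates 1 and 3 and 93.1 in control replicate 2, and at 76.1, 76.9 and 92.5 CPM in Asxl2-/- replicate 2 and control replicates 1 and 3. Psmb6, the caspase-like site, had 99.2, 91.5 and 146 CPM in the gene-count libraries and 166, 175 and 185 CPM in the exon-count libraries in that order. Psmb7, the trypsin-like site, had 132, 143 and 194 CPM and then 235, 238 and 299 CPM. All 3 genes were lower in every Asxl2-/- library than in every control of the same kind of file, by a small margin in the exon-count files. Their log2 fold changes were -0.37, -0.36 and -0.34 (SE 0.14, 0.12 and 0.12), with adjusted p of 0.149, 0.134 and 0.149. Of the transcript bases of Psmb5, 12.5% also belong to the microRNA gene Mir686, and reads there cannot be told apart.

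Ratios within a library compared each immunoproteasome subunit with the subunit it replaces, free of scaling between libraries. For all 3 pairs the groups differed by less than the SD of the controls, which was 0.16, 0.37 and 0.35 on the log2 scale. The SD of the Asxl2-/- libraries was 0.20, 0.23 and 0.06, and the difference for Psmb10 to Psmb7 exceeded it. The log2 ratio of Psmb8 to Psmb5 was 1.51, 1.91 and 1.69 in Asxl2-/- replicates 1 to 3 and 1.62, 1.93 and 1.81 in control replicates 1 to 3, a difference of -0.08 (exact permutation test, two-sided, p = 0.6). For Psmb9 to Psmb6 the difference was 0.05 (exact permutation p = 1.0). The log2 ratio of Psmb10 to Psmb7 was -0.72, -0.63 and -0.60 in Asxl2-/- cells and -0.69, 0.00 and -0.27 in controls, a difference of -0.33 (exact permutation p = 0.3). Here control replicate 1 lay within the Asxl2-/- range, and control replicates 2 and 3 lay above it. Adjusted over the 3 ratios, the p-values were 0.9, 1.0 and 0.9, and with 3 against 3 libraries the smallest p this test allows is 0.1. The differences were -0.33, -0.27 and -0.66 for gene counts alone, against 0.20, 0.18 and -0.15 for exon counts alone. The test pooled both kinds of file, which the groups hold unevenly, and for the first 2 ratios it averaged differences of opposite sign. The immunoproteasome genes made up 15.4%, 18.07% and 16.0% of all member counts in Asxl2-/- replicates 1 to 3 and 16.4%, 20.03% and 18.12% in control replicates 1 to 3. The groups did not overlap in the gene-count files, whereas Asxl2-/- replicate 2 lay between the 2 controls in the exon-count files.

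Among the non-catalytic beta subunits of the core, which shape the barrel, 3 of 4 were lower at an unadjusted p under 0.05. Psmb3 had 64.7 and 65.2 CPM in Asxl2-/- replicates 1 and 3 and 103 in control replicate 2, and 110.2, 122 and 150.0 CPM in Asxl2-/- replicate 2 and control replicates 1 and 3. Its libraries did not overlap within either kind of file, and its log2 fold change was -0.47 (SE 0.12, adjusted p = 0.0870). Psmb1 had the smallest difference of the group, -0.21 (SE 0.12, adjusted p = 0.311), and Asxl2-/- replicate 2 lay above control replicate 1.

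The alpha ring showed a uniform but weakly resolved difference. All 7 genes had log2 fold changes between -0.40 (Psma5, SE 0.15, adjusted p = 0.161) and -0.18 (Psma6, SE 0.12, adjusted p = 0.372), with a median of -0.33, and 4 had an unadjusted p under 0.05. Psma3 was the 1 gene of the ring apart within both kinds of file. Psma5 had 86.8 and 103 CPM against 147 in the gene-count files, and 183 CPM in Asxl2-/- replicate 2 against 181 and 234 in control replicates 1 and 3. The group median was -0.50 where genes had been counted and -0.10 where exons had been counted.

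Psma8, an alpha subunit best known from germ cells, had the most negative log2 fold change of all members, -1.26 (SE 0.36, adjusted p = 0.104). Its levels were low, at 3.32 and 5.80 CPM in Asxl2-/- replicates 1 and 3 and 16.6 in control replicate 2, and at 5.52 CPM in Asxl2-/- replicate 2 against 10.9 and 6.77 in control replicates 1 and 3. The libraries did not overlap within either kind of file, although the gap to control replicate 3 was small. Without control replicate 2 the log2 fold change was -0.68. Reads fell on all 7 exons in the exon-count files, with shares of 6.53% to 33.3% in Asxl2-/- replicate 2 that were within 4.76 percentage points of the control mean. For the immunoproteasome genes, all 42 exons stayed within 1.148 percentage points.

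The ATPase ring, which unfolds substrates, had log2 fold changes from -0.48 to -0.24 in 6 of 6 genes, and 4 had an unadjusted p under 0.05. Psmc2 had 122 and 143 CPM in Asxl2-/- replicates 1 and 3 and 189.9 in control replicate 2, and 201 CPM in Asxl2-/- replicate 2 against 234 and 316 in control replicates 1 and 3, with a log2 fold change of -0.48 (SE 0.14, adjusted p = 0.103). Psmc5 gave -0.43 (SE 0.11, adjusted p = 0.0925) and Psmc4 gave -0.41 (SE 0.12, adjusted p = 0.102). These 3 were apart within both kinds of file. Psmc6 was the least different at -0.24 (SE 0.13, adjusted p = 0.283).

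Of the other base subunits, Psmd4, a receptor for ubiquitin chains, came closest to the threshold. It had 113 and 111 CPM in Asxl2-/- replicates 1 and 3 and 159 in control replicate 2, and 174 CPM in Asxl2-/- replicate 2 against 207 and 244 in control replicates 1 and 3. The Asxl2-/- libraries lay below the controls in both kinds of file by similar amounts, -0.50 and -0.37 on the log2 scale. The fitted log2 fold change was -0.44 (SE 0.09, unadjusted p = 0.00336, adjusted p = 0.0682). Psmd1, a scaffold of the base, gave -0.33 (SE 0.12, adjusted p = 0.155).

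The lid, which removes ubiquitin from substrates, held the largest difference outside the core. Psmd3 had 149 and 169 CPM in Asxl2-/- replicates 1 and 3 and 267 in control replicate 2, and 241 CPM in Asxl2-/- replicate 2 against 291 and 401 in control replicates 1 and 3. Its groups did not overlap, and the log2 fold change was -0.63 (SE 0.15, adjusted p = 0.0758), with -0.74 and -0.50 in gene-count and exon-count files. Psmd7 gave -0.43 (SE 0.12, adjusted p = 0.103). All 8 lid genes were below 0, 6 had an unadjusted p under 0.05, and 7 were apart within both kinds of file. Psmd8 was the exception, at -0.20 (SE 0.10, adjusted p = 0.242).

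The remaining activators differed from each other. Psme3, which encodes the nuclear 11S activator, had 249 and 302 CPM in Asxl2-/- replicates 1 and 3 against 367, and 316 CPM in Asxl2-/- replicate 2 against 347 and 434, with a log2 fold change of -0.35 (SE 0.13, adjusted p = 0.148). Psme4, the large single-chain activator, had 122 and 133 CPM against 134 in the gene-count files and 169.5 CPM against 152 and 171 in the exon-count files. Its log2 fold change was 0.01 (SE 0.09, adjusted p = 0.963), the only tested member not below 0, although it was -0.04 under median-ratio scaling. The inhibitor gene Psmf1 gave -0.32 (SE 0.13, adjusted p = 0.173) and was apart within both kinds of file.

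The assembly chaperones were split. Psmg3, a chaperone of the core, had 27.3 and 25.8 CPM in Asxl2-/- replicates 1 and 3 against 43.0, and 30.7 CPM in Asxl2-/- replicate 2 against 35.4 and 45.9, with a log2 fold change of -0.54 (SE 0.14, adjusted p = 0.0831). Psmg2, which pairs with Psmg1 in early assembly of the core, gave -0.13 (SE 0.09, adjusted p = 0.392). Psmd9, a chaperone of the base, gave -0.45 (SE 0.13, adjusted p = 0.1003). Psmd10, another base chaperone and the X-linked member, gave -0.13 (SE 0.10, adjusted p = 0.437). Psmg3 and Psmd9 thus lay at or below the median of the module, whereas the differences of Psmg2 and Psmd10 were close in size to their standard errors.

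The 2 matches outside the proteasome were the meiotic recombination gene Psmc3ip, at -0.13 (SE 0.13, adjusted p = 0.537), and Psme2b, at -0.46 (SE 0.26, adjusted p = 0.291) and a level of 1.69 to 4.72 CPM. Without control replicate 2, Psmc3ip gave 0.05. Psme2b shares 24.7% of its bases with another annotated gene and Psmc3ip 6.89% with Mlx. Psmb11, the catalytic subunit of cortical thymic epithelium, had 1 count in control replicate 3 and 0 in the other 5 libraries and was not tested. It could not be detected at this depth.

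Genes that work with the proteasome were examined as a list beside the members. Of 22 tested proteasome-associated genes, 17 were below 0 with a median log2 fold change of -0.17. In edgeR none passed the adjusted threshold, with 6 lower and 3 higher at an unadjusted p under 0.05. Of all 14145 genes tested, 1786 were lower and 2126 higher at that level. DESeq2 called 1 lower, against 7.97% of all genes. Adrm1, a ubiquitin receptor of the 19S base, had 49.1 and 54.1 CPM in Asxl2-/- replicates 1 and 3 against 76.5, and 86.3 CPM in Asxl2-/- replicate 2 against 101 and 122, with a log2 fold change of -0.46 (SE 0.11, adjusted p = 0.0761). Ngly1, a deglycosylase that acts on the proteasome regulator Nfe2l1, gave 0.29 (SE 0.09, adjusted p = 0.119), and Ubqln2, a shuttle for ubiquitinated proteins, gave 0.26 (SE 0.09, adjusted p = 0.124). The integral subunit Adrm1 thus lay among the Psm genes, and these 2 helpers pointed the other way. Of 5 ubiquitin supply and activation genes, 3 were below 0 with a median of -0.07, and edgeR called none, with 1 lower at an unadjusted p under 0.05, against 1 by DESeq2. Uba1, the main ubiquitin-activating enzyme, gave -0.31 (SE 0.10, adjusted p = 0.116). Uba6, a second such enzyme, gave 0.07 and Rps27a, which encodes a fusion of ubiquitin with a ribosomal protein, gave -0.07, and both changed sign under the correction for transcript length.

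Class I antigen processing genes were below 0 in 12 of 12 cases, with a median of -0.28, against -0.58 for gene counts alone and -0.02 for exon counts alone. In edgeR none passed the adjusted threshold and 3 were lower at an unadjusted p under 0.05, against 12.6% of all genes tested. DESeq2 called 2 lower, against 7.97% of all genes. Tapbp, which encodes tapasin, gave -0.66 (SE 0.24, adjusted p = 0.146). The transporter subunit gene Tap2 gave -0.26 (SE 0.10, adjusted p = 0.159) and the tapasin-related Tapbpl gave -0.84 (SE 0.33, adjusted p = 0.164). As for the immunoproteasome genes, the median level in Asxl2-/- replicate 2 was above that in control replicate 1.

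Summed, the interferon-gamma response genes ranked the libraries as the immunoproteasome genes did, whereas the single genes named here did not in the exon-count files. All 15 interferon-gamma response genes were below 0 with a median of -1.27. None passed the adjusted threshold in edgeR or DESeq2, and 6 in edgeR and 8 in DESeq2 were lower at an unadjusted p under 0.05. Of all genes tested, 12.6% were lower at that level in edgeR. Their summed CPM was 1022 and 2045 in Asxl2-/- replicates 1 and 3 against 5459 in control replicate 2, and 1660 in Asxl2-/- replicate 2 against 1407 and 3770 in control replicates 1 and 3. In each kind of file the order of libraries was the same as for the summed immunoproteasome genes, at 906 and 1016 against 1807 CPM and at 1745 against 1599 and 2249 CPM. The leading genes were Ciita, the regulator of class II genes, at -1.67 (SE 0.50, adjusted p = 0.108), and the chemokine genes Cxcl10 and Cxcl9 at -2.06 (SE 0.66, adjusted p = 0.120) and -1.72 (SE 0.55, adjusted p = 0.121). Of 16 type I interferon response genes, 12 were below 0 with a median of -0.44. DESeq2 called 5 lower, against 7.97% of all genes, while edgeR called none. At an unadjusted p under 0.05, 7 were lower and 1 higher in edgeR. Irf7 had 18.3 and 21.7 CPM against 58.7 in the gene-count files, and 28.3 CPM in Asxl2-/- replicate 2 against 37.1 and 59.8, a log2 fold change of -1.15 (SE 0.24, adjusted p = 0.0668). Stat2 gave -0.66 (SE 0.18, adjusted p = 0.0975) and Ifi44 gave -0.92 (SE 0.27, adjusted p = 0.107). Ciita, Cxcl10, Cxcl9, Irf7, Stat2 and Ifi44 were each lower in Asxl2-/- replicate 2 than in control replicate 1, unlike the immunoproteasome genes. Within both kinds of file, every Asxl2-/- library was lower for 3 of 15 interferon-gamma and 8 of 16 type I genes. This held for 0 of 5 immunoproteasome genes and 23.3% of all genes. The part of the interferon-response genes in the result was not tested.

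**Figure D5:**
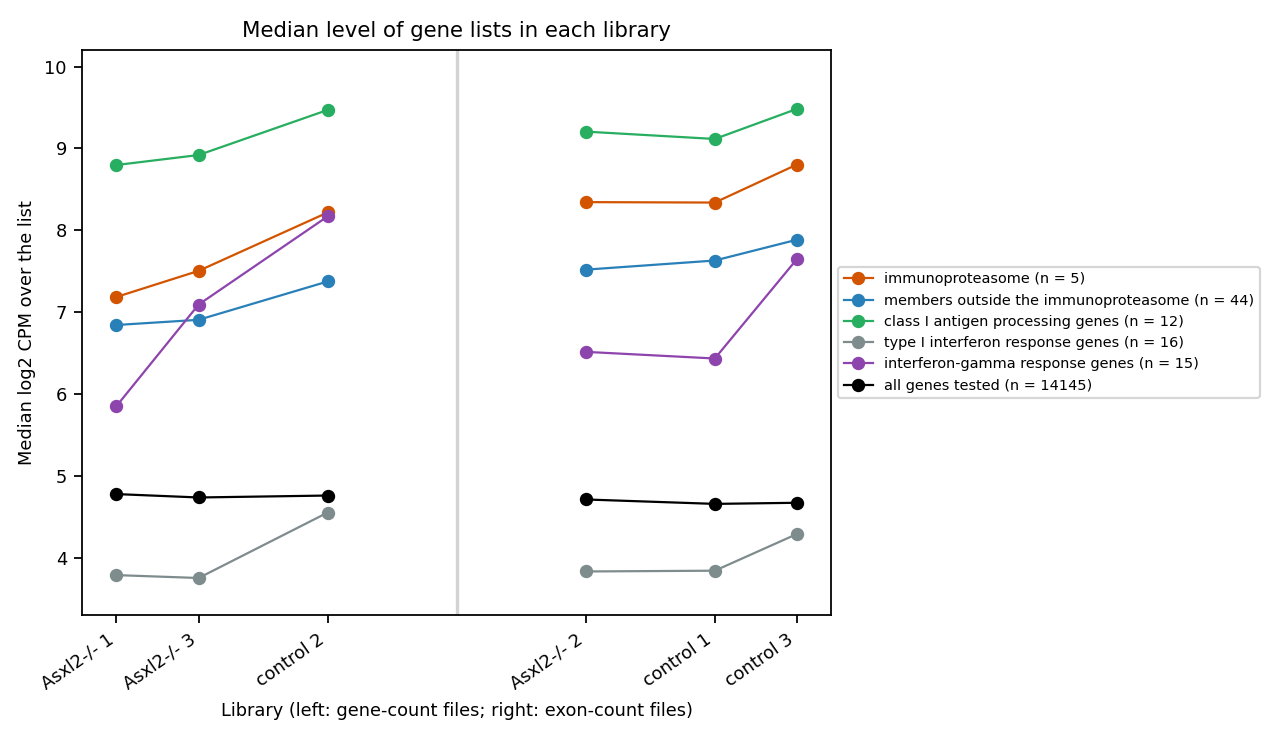
Median log2 CPM over 6 gene lists in each library, with the gene-count files on the left and the exon-count files on the right. Lines join libraries of the same kind only to guide the eye. The immunoproteasome, class I and interferon-gamma lists are highest in control replicate 2 on the left and control replicate 3 on the right, where Asxl2-/- replicate 2 lies at or above control replicate 1, while the median of all genes stays between 4.66 and 4.78.

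Other measured differences between the libraries ran beside the result. Ly6a, which encodes the sorted antigen Sca-1, was at 51.8 and 57.1 CPM in Asxl2-/- replicates 1 and 3 and 260 in control replicate 2, and at 69.7 CPM in Asxl2-/- replicate 2 against 40.5 and 149 in control replicates 1 and 3. Of 10 dendritic cell and macrophage markers tested, 7 were below 0, with summed CPM of 522 and 736 against 4081 in the gene-count files and 1337 against 1540.0 and 1962 in the exon-count files. Most of this sum came from the class II genes Cd74, H2-Aa and H2-Ab1, at 1825, 1063 and 1044 CPM in control replicate 2. Siglech, C1qa and Flt3l were not below 0, at 0.35, 0.07 and 0.00. In edgeR none of the 10 markers passed and 6 were lower at an unadjusted p under 0.05, while DESeq2 called 2 lower. Of 10 erythroid markers, 9 were below 0, with sums of 679 to 1331 CPM in Asxl2-/- libraries and 1964 to 3057 in controls. In edgeR none passed and 7 were lower at an unadjusted p under 0.05, while DESeq2 called 5 lower and limma-voom 1. None of the 9 T and NK, 9 neutrophil and monocyte or 6 endothelial markers tested passed the threshold in edgeR. At an unadjusted p under 0.05, edgeR had 2 T and NK markers lower, 2 neutrophil and monocyte markers higher and 2 endothelial markers higher. Of all 14145 genes, 1786 were lower and 2126 higher at that level. DESeq2 called 2 T and NK markers lower, and 2 neutrophil and monocyte markers and 1 endothelial marker higher. Of all genes it called 1128 lower and 1174 higher. The defining macrophage gene C1qa stayed at 0.61 to 3.11 CPM in all libraries. Proteasome transcripts are short, with a median of 1296 bases against 2753 for all genes tested, and the trend of log2 counts with length at 1000 bases was 0.15 in control replicate 2 and between -0.10 and 0.07 in the others. After correction for this trend the median of the members was -0.27. The part of cell composition in the result was not tested.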

How the data were processed

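RNA sequencing of LSK cells gave 6 libraries, 3 per group. Per the labels' processing notes, STAR, featureCounts and DESeq2 were named with the mm10 build, without versions or roles, and the study's methods add poly(A) selection, unstranded libraries, RefSeq annotation and tests with Cuffdiff. The authors deposited raw counts as whole numbers, per transcript in 3 files and per exon in 3. How reads with several matches were treated is not given in the sources used here.

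Each symbol was represented by its transcript with the longest summed exon length, and exon counts were summed. Counts were fitted in edgeR 4.0.16 with R 4.3.3 (quasi-likelihood F-test, TMM scaling, filterByExpr) with kind of file and group as terms and 3 residual degrees of freedom. Benjamini-Hochberg adjustment of the two-sided p-values ran over the 14145 genes tested, and 0.05 was the threshold. Standard errors were obtained by dividing the fold change by the root of F. Ratios were tested with exact permutation tests (scipy 1.17.1). DESeq2 1.42.0, limma-voom (limma 3.58.1), other scalings and filters, the replicate block and leaving out each library were alternatives, and the fits were tested on simulated data. Fits within 1 kind of file have a lone library in 1 group and carry no test.

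The study names 3 biological replicates per group, and the labels give no litter or batch. Every pair of libraries differed by more than sampling noise. The members, gene lists and tests were chosen with earlier results of these data known. The named genes were the 5 immunoproteasome genes and their counterparts, the 10 members with the smallest p-values, the highest and lowest fold change of each role, untested or unusual members, and the 3 genes with the smallest p-values of each pathway list. A listed gene is not reported here.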

Additional observations from a re-analysis of the deposited data

How the results depend on the processing

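No member passed the adjusted threshold with limma-voom, with library size or median ratios as the scaling, with a minimum of 10 counts or without a filter, without the covariate, with the length correction, the longest exon or another transcript, or when X and Y genes were left out. DESeq2 called 21 members, 3 of them immunoproteasome genes, and 2302 of all genes. All genes past the threshold numbered 331 in edgeR, 161 with library size only and 209 with the length correction, and 9 to 1312 with 1 library left out, when 0 to 23 members and 0 to 3 immunoproteasome genes passed. With the replicate block and the kind of file, which leaves 1 residual degree of freedom, 5179 genes, 40 members and 5 immunoproteasome genes passed. With the block alone 0 members passed. Deviations of same-numbered libraries correlated at 0.294, -0.008 and -0.003. Each same-numbered pair joined a gene-count and an exon-count file, and these values were not adjusted for that. The check therefore cannot tell whether the numbers carry a pairing. The study's methods name no pairs, and the libraries were not treated as pairs. Counts were too few to test Psmb11.

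Members lower at an unadjusted p under 0.05 numbered 32, with 19 without the covariate, 13 with the block alone and 3 to 43 with 1 library left out. The median of the members was -0.49 without the covariate, -0.51 with the replicate block alone, -0.51 in gene-count files, -0.20 in exon-count files and -0.51 to -0.20 with 1 library left out. For the immunoproteasome genes it was -0.93 and -0.17 in the 2 kinds of file and -0.92 to -0.18 with 1 library left out. For the other members it was -0.48 without the covariate, -0.50 with the block alone, -0.50 and -0.20 in the 2 kinds and -0.50 to -0.21 with 1 library left out. Its sign was negative throughout. The Psmb8 to Psmb5 log2 ratio differed by 0.17 with the longest exon, and by -0.33 and 0.20 in the 2 kinds of file. In gene-count files Psmb9 to Psmb6 differed by -0.27 and Psmb10 to Psmb7 by -0.66.

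Of 650 pairs of a named member and an alternative, 581 kept direction and, where a test was run, call. Of the others, 53 passed the threshold and 16 reversed. The alternatives with 1 kind of file alone carry no test and were judged by direction only. Reversed were Psmb8 (0.047 in exon-count files), Psmb9 (0.057), Psmc3ip (0.044) and Psme4. With 1 library left out they ranged from -0.93 to 0.036, -0.86 to 0.044, -0.31 to 0.048 and -0.051 to 0.072 in that order. Psme4 gave -0.039 with DESeq2 and with median-ratio scaling, -0.093 without the covariate, -0.099 with the block alone, -0.053 in gene-count files, -0.097 with the length correction and -0.036 with the longest exon. Outside the members, Asxl2 gave -0.033 with the length correction, Uba6 -0.047 without the covariate, -0.042 with the block alone and -0.0063 with the length correction, and Rps27a 0.025 with library size only and 0.067 with the length correction. The causes were not tested.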
